A study of Homo sapiens with 4 samples.

Results

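The DNAJ genes encode J-domain proteins, also called HSP40 co-chaperones. They were taken as the rows of the deposited count table whose symbol is DNAJA, DNAJB or DNAJC followed by a number, with pseudogenes left out. Of 41 symbols that matched, DNAJB3 is annotated as a transcribed pseudogene, which left 40 genes of the 35820 rows. The family was picked because 1 gene in it, DNAJC14, stood higher in knockout than in wild-type cells. The values of DNAJC14 between genotypes are therefore given as a description with no test, and the other genes came in by symbol alone.

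The tested group was clone E2-4 of HCT116, a human colon carcinoma line, in which CRISPR was aimed at exon 2 of TOP3B, a topoisomerase gene (knockout, KO; 2 libraries). It was set against the parental wild-type HCT116 (WT; 2 libraries), and both were grown in the same medium with serum. The KO comes from 1 clone, so clone and genotype cannot be told apart, and no label tells if a genotype's pair of libraries came from separate cultures. P-values therefore measure the spread between these libraries, which may be technical. The enzyme relaxes DNA and also works on RNA, and the study's question concerned transcription and R-loops, which are RNA-DNA hybrids, when it is missing. In such bulk RNA, fewer cells expressing a gene and less of its RNA per cell cannot be told apart.

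The KO libraries held 10450048 and 16143634 estimated read counts, against 15141919 and 11750516 in the WT libraries. Levels are in CPM, the count scaled to a fixed library total after TMM normalization, and 3 counts in 1 library correspond to 0.176 to 0.271 CPM, which covers counting error only. TOP3B itself had 43.9 and 54.6 CPM in KO and 57.0 and 66.4 CPM in WT (log2 fold change -0.32, SE 0.17; edgeR adjusted p = 0.522), and a gene-level count does not show whether exon 2 was cut. The 10 epithelial markers summed to 1892 to 1989 CPM in KO and 2717 to 3226 CPM in WT, with at most 1 count of VIL1. Of the 9 tested markers, 8 had a log2 fold change below 0 and 1 above. In 7 of the 9, KO was lower with no overlap of the genotypes, against 23.5% of all tested genes. edgeR had 6 of the 9 lower at an unadjusted p under 0.05, against 6.21%, and 0 after adjustment. DESeq2 called 2 lower, against 0.946% of all its genes. These were ELF3 (log2 fold change -0.96; DESeq2 adjusted p = 0.000390; edgeR adjusted p = 0.246) and KRT19 (-0.80; DESeq2 adjusted p = 0.00290; edgeR adjusted p = 0.293). The part of the epithelial markers in the DNAJ values was not tested. The sums were under 3 CPM in every library for fibroblast, leukocyte and endothelial markers, and COL1A2, COL3A1, PTPRC, CD3E and VWF were listed at 0 throughout.

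A J-domain protein binds an HSP70 chaperone through its J domain and speeds the hydrolysis of ATP by that HSP70, so that the HSP70 clamps on an unfolded client. Nucleotide exchange factors then release the client. Type A proteins carry a J domain, a glycine- and phenylalanine-rich stretch and a zinc-binding region, type B proteins lack the zinc-binding region, and type C proteins share only the J domain and carry other parts that place them at one site, such as the ribosome, the mitochondrial import channel or the membrane of the endoplasmic reticulum (ER). Colon carcinoma cells, like other dividing cells, use these proteins for folding, membrane traffic and protein import.

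Of the 40 genes, 4 were of type A, 11 of type B and 25 of type C, on 17 chromosomes. After edgeR's filter on low counts 34 could be tested, 4 of type A, 7 of type B and 23 of type C. The 6 that it dropped had at most 8 counts in any library. DNAJB1, the main heat-inducible type B protein of the cytosol, and DNAJB8, which is best known from testis, were listed at 0 in all 4 libraries. DNAJB1 is used by most cells, and other common genes such as ACTB also had low estimates in this table (600, 1006, 426 and 507 counts in KO replicates 1 and 2 and WT replicates 1 and 2). DNAJB1 is therefore only said to be listed at 0. The remaining 4 were DNAJB9 and DNAJC1, both ER co-chaperones, DNAJB13 of cilia and sperm tails, and DNAJC28.

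The 34 tested genes spanned mean levels of 1.77 CPM (DNAJC13) to 363.8 CPM (DNAJA3). The 8 with most counts were DNAJA3, DNAJB6, DNAJA2, DNAJA4, DNAJC10, DNAJC8, DNAJC2 and DNAJC5. Together these 8 held 76.0% and 75.0% of the family's counts in KO and 76.2% and 73.4% in WT. The family as a whole took 0.220% and 0.231% of all counts in KO libraries, against 0.212% in each WT library. After TMM scaling the tested members summed to 2075 and 2190 CPM in KO and 2468 and 2034 CPM in WT, so the genotypes overlapped and WT replicate 1 was highest. The TMM factor was 0.858 in WT replicate 1, 1.04 in WT replicate 2 and 1.06 in each KO library. The height of WT replicate 1 in this sum therefore depends on the scaling, as its share of counts was that of WT replicate 2.

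**Figure D1:**
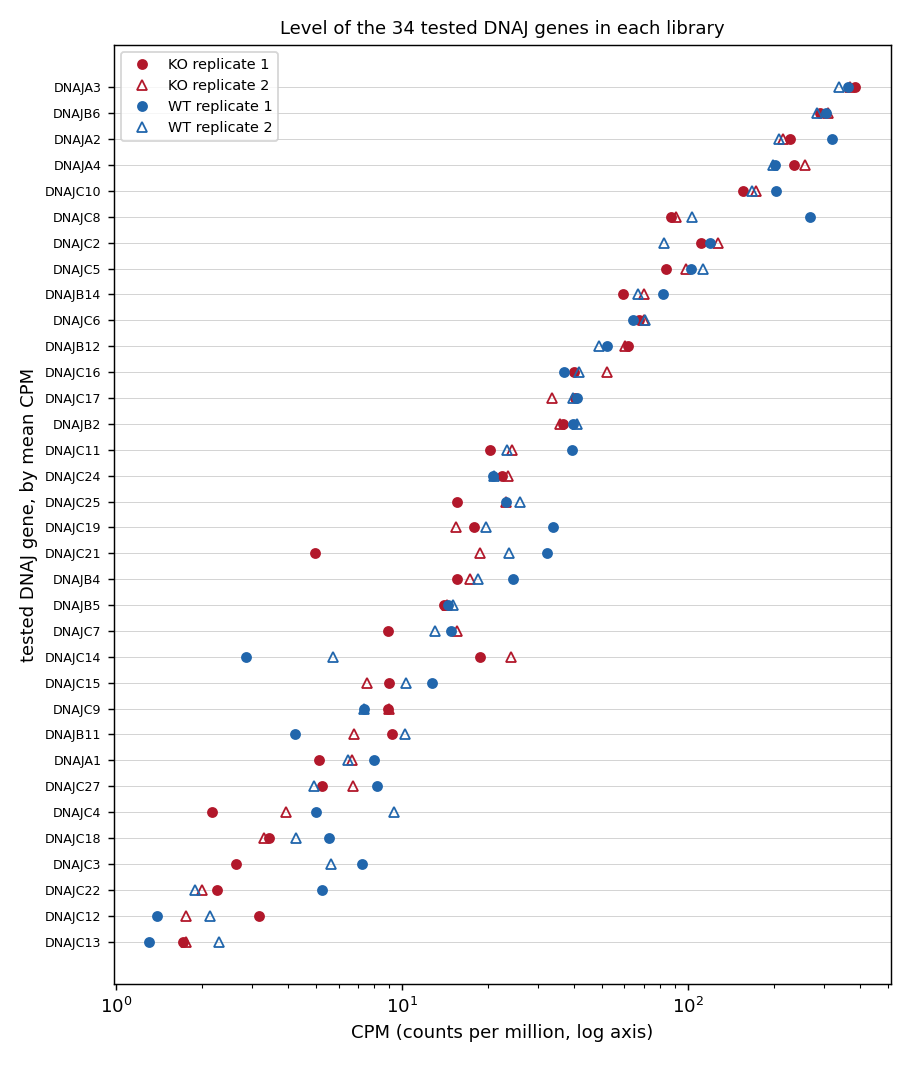
Level of each of the 34 tested DNAJ genes (rows, ordered by mean level) in CPM on a log axis; red marks are the 2 KO libraries and blue marks the 2 WT libraries. DNAJC14 shows 18.7 and 24.0 CPM in KO against 2.85 and 5.73 CPM in WT, while most other genes have red and blue marks close together; DNAJC3 in KO replicate 2 is at 0 and is not drawn.

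Per unit of length the order was different. In the RPKM that the authors deposited (reads scaled to gene length and library total), DNAJA3 had 25.9 and 24.8 in KO and 19.7 and 22.2 in WT, and its mean over the 4 libraries was 23.2. DNAJA2 and DNAJA4 followed with means of 21.5 and 19.2 RPKM, then DNAJB2 with 10.2 RPKM, which by counts alone lies well below the top 8. DNAJC10, a long gene, had a mean of 3.67 RPKM. The gene lengths implied by these RPKM had a median of 0.627 of the genomic span over the tested genes. Genes with long introns are therefore set lower than a transcript length would set them.

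DNAJC14 is an ER membrane protein that is known to help dopamine D1 receptors leave the ER. It had 207 and 409 counts in the KO libraries, against 37 and 70 in the WT libraries. In CPM this was 18.7 and 24.0 in KO, and 2.85 and 5.73 in WT. Both KO libraries lay above both WT libraries, and the WT libraries were themselves 2.01-fold apart. The means were 21.3 ± 3.75 CPM in KO and 4.29 ± 2.04 CPM in WT (SD, n = 2 each), a log2 fold change of 2.32 or 4.98-fold. The log2 fold change was 1.90 without WT replicate 1 and 2.92 without WT replicate 2. It was 2.49 without KO replicate 1 and 2.12 without KO replicate 2. Of the 12269 genes tested, 71 had a larger log2 fold change than DNAJC14. The estimate is uncertain, because DNAJC14 shares sequence with overlapping genes.

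DNAJC14 lies on the minus strand of chromosome 12. In GENCODE 29 the readthrough gene AC023055.1, which joins the neighbouring SARNP locus to DNAJC14, runs on the same strand and covers 973 of the 4192 exon bases of DNAJC14 (23.2%). AC023055.1 was not analysed here. Reads of its shared bases may be counted under DNAJC14, so the DNAJC14 values may hold readthrough RNA as well, and a division of those reads was not tested. On the other strand the exons of ORMDL2 overlap 920 exon bases and those of TMEM198B overlap 541. The kit marks strand, but whether counting used it is not stated in the labels.

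No tested neighbour of DNAJC14 passed edgeR or DESeq2. These called only 0.00815% and 1.45% of all their genes, so the lack of calls among a few neighbours says little. SARNP, an RNA-binding protein of mRNA export, had 14.2 and 17.1 CPM in KO and 13.2 and 14.4 CPM in WT (log2 fold change 0.18, SE 0.21; edgeR adjusted p = 0.735). ORMDL2, a regulator of sphingolipid synthesis, had 30.1 and 27.2 CPM in KO, against 32.9 and 25.3 CPM in WT (-0.02, SE 0.19; edgeR adjusted p = 0.965). TMEM198B had 4.51 and 2.93 CPM in KO and 3.16 and 4.25 CPM in WT (log2 fold change 0.00036, SE 0.41). The genotypes overlapped in all 3 genes. PYM1, which recycles exon junction complexes, was at -0.17 (edgeR adjusted p = 0.670) and the growth factor GDF11 at 0.28 (edgeR adjusted p = 0.762). MMP19, a matrix metalloproteinase, had 5 and 18 counts in KO and 0 and 4 in WT and was too low to test. The genes AC073487.1 and AC023055.1 were not analysed, OLA1P3 had at most 15 counts, and GSTP1P1 was listed at 0.

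**Figure D2:**
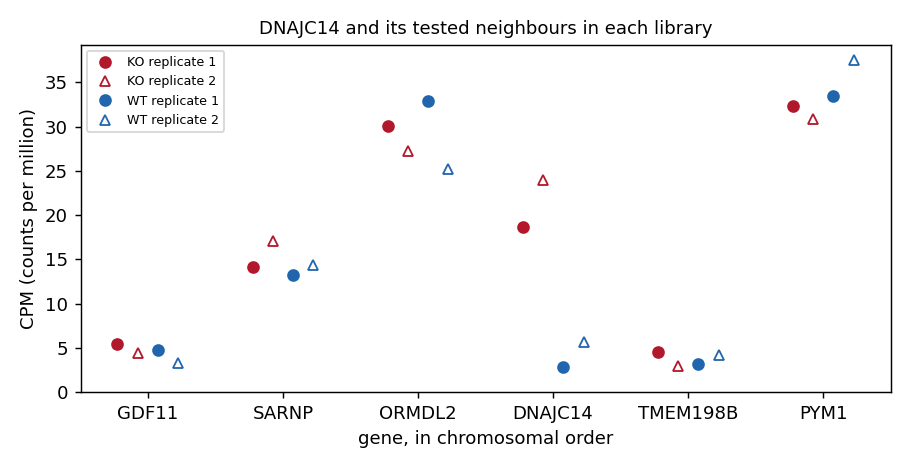
CPM of DNAJC14 and of the tested genes among the 5 on each side of it, in chromosomal order; red marks are KO libraries and blue marks WT libraries. DNAJC14 is separated by genotype, while SARNP, ORMDL2, TMEM198B and GDF11 overlap and PYM1 lies slightly lower in KO.

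RefSeq lists 2 start sites for DNAJC14. The window of 300 bases around the downstream one, chr12:55829538-55829837 on the minus strand (GRCh38.p14), is shown because it belongs to the gene that chose the family. Capitals mark its 1 match to CCGGAAGT, the core of ETS factor sites, which starts 56 bases before the start site.
DNAJC14: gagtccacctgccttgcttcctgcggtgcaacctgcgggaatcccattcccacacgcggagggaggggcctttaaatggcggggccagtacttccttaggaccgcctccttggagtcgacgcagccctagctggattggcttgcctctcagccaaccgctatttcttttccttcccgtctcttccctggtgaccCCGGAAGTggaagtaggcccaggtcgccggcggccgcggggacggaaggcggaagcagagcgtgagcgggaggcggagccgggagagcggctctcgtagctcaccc
The window has 65.0% G and C and 24 CpG pairs. The window of the upstream start site has 55.7% and 8, and no such match.

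Promoter windows from RefSeq (GRCh38.p14, 250 bases before to 50 after each start site) matched 37 of the 40 genes, with 49 windows. Their median G and C content was 65.0% with 24 CpG pairs, against 58.7% and 14 over all 35116 windows. 5 motifs were searched on both strands. CCGGAAGT was found in 5 of 49 windows (10.2%), against 4.14% of all windows, in DNAJA1, DNAJB9, DNAJC2, DNAJC7 and DNAJC14. The heat shock element, read as GAA, TTC and GAA with any pair of bases between them, was in 2 windows (4.08%), against 0.490% of all. The ER stress element, read as CCAAT and CCACG with any 9 bases between them, was in 0, against 0.0769% of all. The cAMP response element TGACGTCA was in 2 windows of DNAJC27 that overlap (4.08%, against 1.85%). Both windows hold the same site, and by gene it was in 1 of 37 (2.70%), against 2.25% of all genes. CACGTG was in windows of DNAJB9, DNAJC8, DNAJC12 and DNAJC16 (8.16%, against 7.26%). CCGGAAGT and the heat shock element did not overlap in the windows shown. A match is a description of letters and not a binding site.

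The 2 heat shock elements are shown since DNAJ genes are known as targets of heat shock factor 1, and the ETS core matches since DNAJC14 carries one; capitals mark the motif, with 4 bases on each side, and each line is 5′ to 3′ on the strand of the gene.
DNAJA1 heat shock element, chr9:33025272-33025292: ggcgGAACTTTCCAGAAcgct
DNAJB6 heat shock element, chr7:157336869-157336889: ccgaGAACCTTCGCGAAggtg
DNAJC14 ETS core, chr12:55829632-55829647: gaccCCGGAAGTggaa
DNAJC2 ETS core, chr7:103344768-103344783: catcCCGGAAGTgctt
DNAJC7 ETS core, chr17:42017461-42017476: ccaaCCGGAAGTgctc
DNAJB9 ETS core, chr7:108569757-108569772: gaagCCGGAAGTggcg
DNAJA1 ETS core, on the other strand, chr9:33025209-33025224: cgggACTTCCGGcggg
The log2 fold changes of DNAJA1 and DNAJB6 were -0.29 and 0.03, and those of DNAJC2, DNAJC7 and DNAJA1 were 0.24, -0.18 and -0.29, while DNAJB9 was too low to test.

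Of the 33 tested members other than DNAJC14, 0 passed edgeR or DESeq2. edgeR called 0.00815% of all tested genes at an adjusted p under 0.05, and its adjusted p ran from 0.441 to 0.973 in the 33. DESeq2 called 1.45% of all its genes (0.504% higher and 0.946% lower in KO). With DNAJC14 counted, edgeR called 0 of 34 and DESeq2 1 of 34; DNAJC14 was chosen on this contrast, so nothing is read from its own calls. Among the 33 the smallest DESeq2 adjusted p was 0.193, for DNAJC8. At an unadjusted p under 0.05, edgeR had 1 of those 33 (DNAJA4, higher), against 11.2% of all tested genes (4.97% higher and 6.21% lower in KO).

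More members lay below 0 than above. With DNAJC14 left out, 11 had a log2 fold change above 0 and 22 below 0, against 48.5% above and 51.5% below over all tested genes. Their median was -0.18, against -0.01 over all tested genes. With 1 library left out in turn it ran from -0.26 to -0.080, nearest 0 without WT replicate 1. For 27 of the 33 the difference was under 1.5-fold, a share close to the 9545 of 12269 over all tested genes. The genotypes did not overlap in 17 of 33 genes, against 47.0% of all tested genes. In 5 both were above (23.5% of all tested genes) and in 12 both were below (23.5%). At least 2-fold lower in KO were 4 of the 33 (DNAJC3, DNAJC4, DNAJC8 and DNAJC21), against 5.80% of all, and at least 2-fold higher 0, against 3.67%. None of the 4 passed a test.

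**Figure D3:**
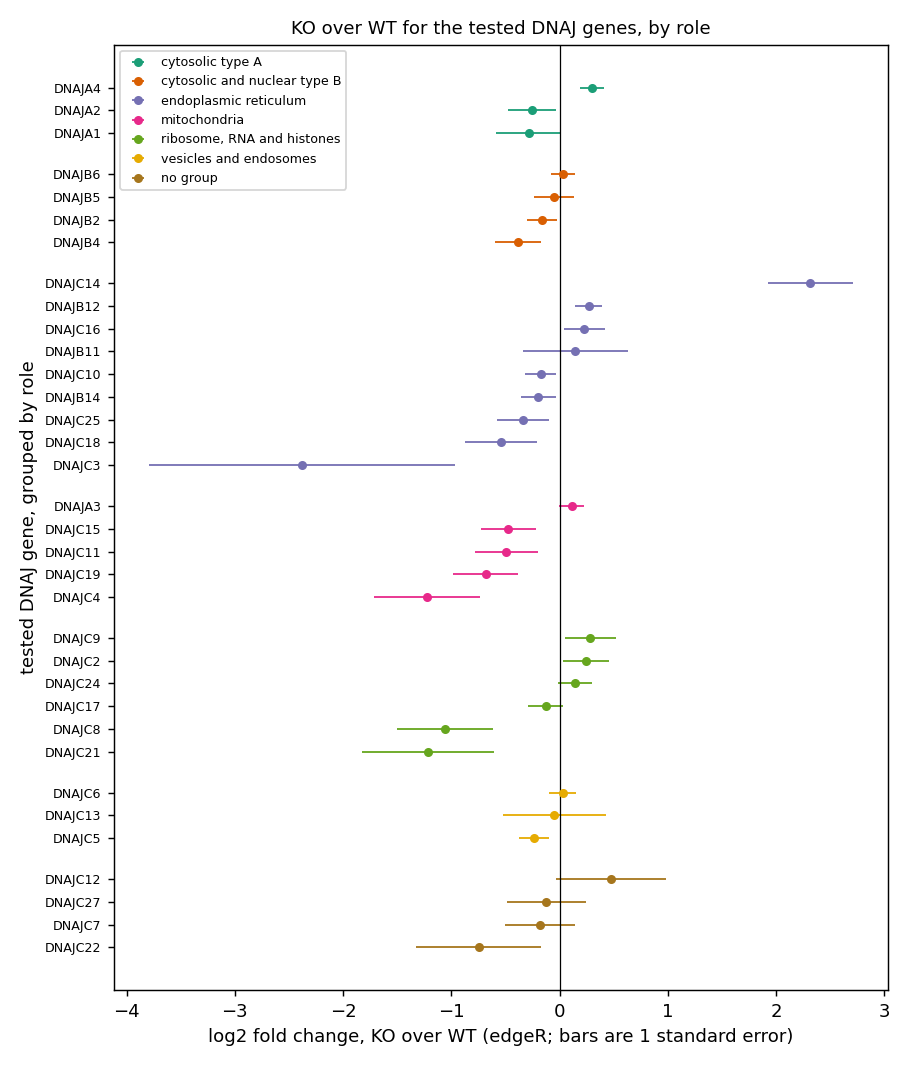
log2 fold change of KO over WT from edgeR for the 34 tested DNAJ genes, grouped by role, with bars of 1 standard error. DNAJC14 lies at 2.32, 4 genes lie below -1 with wide bars, and the others lie between -0.75 and 0.47.

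In the cytosolic type A proteins, which refold clients with HSP70, DNAJA4 stood out by its narrow spread. It had 235.6 and 257.3 CPM in KO and 201.1 and 199.2 CPM in WT. The genotypes did not overlap, yet the difference did not pass (log2 fold change 0.30, SE 0.11; edgeR adjusted p = 0.441). DNAJA2 had 228.6 and 215.0 CPM in KO, against 319.2 and 208.7 CPM in WT (-0.25, SE 0.22; edgeR adjusted p = 0.666). WT replicate 1 was the high library, and without it the value of DNAJA2 turned to 0.09. DNAJA1 had 5.14 and 6.69 CPM in KO and 8.00 and 6.46 CPM in WT (-0.29, SE 0.30; edgeR adjusted p = 0.713).

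Of 7 type B proteins of the cytosol and nucleus 4 were tested, with a median log2 fold change of -0.11. DNAJB6, which keeps polyglutamine proteins from aggregating, had 290.3 and 308.8 CPM in KO and 303.7 and 282.6 CPM in WT (log2 fold change 0.03, SE 0.11; edgeR adjusted p = 0.924). Its sign turned to -0.0068 without WT replicate 2 and to -0.013 without KO replicate 2, so no direction is given. DNAJB4, a relative of DNAJB1, had 15.6 and 17.2 CPM in KO, against 24.5 and 18.5 CPM in WT (-0.39, SE 0.21; edgeR adjusted p = 0.529). DNAJB2, which steers clients to the proteasome, and DNAJB5 lay at -0.16 and -0.05. In DNAJB2, DNAJB4 and DNAJB5 both KO libraries were below both WT libraries, by small margins in DNAJB5.

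The ER group held 11 genes, of which 9 were tested. Without DNAJC14 the other 8 had a median log2 fold change of -0.19, with 3 above 0 and 5 below 0. DNAJC3, the P58IPK protein that binds unfolded clients in the ER lumen, had 29 and 0 counts in KO, against 94 and 69 in WT. In CPM this was 2.62 and 0 in KO and 7.23 and 5.64 in WT (-2.38, SE 1.41; edgeR adjusted p = 0.552). The fitted size varied widely, at -1.30 without KO replicate 2 and -4.93 in limma-voom. Without KO replicate 1 it was -9.51, but the KO library that remains is at 0, so that fit gives no bound. An exact 0 can also be a failed estimate.

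DNAJB12, a membrane protein of ER-associated degradation, had 61.9 and 60.1 CPM in KO and 52.2 and 49.1 CPM in WT (log2 fold change 0.27, SE 0.13; edgeR adjusted p = 0.496). Its 2 libraries of each genotype lay close together and the genotypes did not overlap. DNAJB14, its close relative, was at -0.20 (edgeR adjusted p = 0.647), with overlapping genotypes. DNAJC10, the ER disulfide reductase ERdj5, had 155.4 and 173.1 CPM in KO, against 204.1 and 167.2 CPM in WT (-0.18, SE 0.15; edgeR adjusted p = 0.648). DNAJB11, a lumenal cofactor of the ER HSP70, had 9.21 and 6.80 CPM in KO and 4.23 and 10.2 CPM in WT (0.14, SE 0.48; edgeR adjusted p = 0.917). The WT libraries of DNAJB11 were 2.42-fold apart and enclosed both KO values, and its sign turned to -0.36 without WT replicate 1 and -0.084 without KO replicate 1. DNAJC16, DNAJC18 and DNAJC25 lay at 0.23, -0.55 and -0.34, with edgeR adjusted p of 0.638, 0.555 and 0.606. DNAJC25 shares its exons with the readthrough gene DNAJC25-GNG10, which had 302 and 531 counts in KO and 368 and 428 in WT, so its estimate is uncertain.

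In the mitochondrial group of 6 genes 5 were tested, with a median log2 fold change of -0.49. DNAJC19, a subunit of the import motor at the inner membrane, had 17.9 and 15.4 CPM in KO, against 33.7 and 19.6 CPM in WT (-0.68, SE 0.30; edgeR adjusted p = 0.481). DNAJC15, related to DNAJC19, was at -0.47 (SE 0.25; edgeR adjusted p = 0.522), and DNAJC11, which is found with the cristae-organising complex, at -0.49 (SE 0.29; edgeR adjusted p = 0.548). In DNAJC15 and DNAJC19 the KO values were the lower ones without overlap, while in DNAJC11 1 KO library lay above WT replicate 2. In CPM, WT replicate 1 stood above WT replicate 2 by 1.68-fold in DNAJC11, 1.72-fold in DNAJC19 and 1.23-fold in DNAJC15. The TMM factors of 0.858 in WT replicate 1 and 1.04 in WT replicate 2 enter these ratios equally in every gene. They account for most of the small difference in DNAJC15, which had 165 and 126 counts. In DNAJC4 the high library was WT replicate 2. DNAJC4 had 2.17 and 3.93 CPM in KO and 5.00 and 9.41 CPM in WT (-1.22, SE 0.49; edgeR adjusted p = 0.455), and was -0.69 without WT replicate 2. DNAJC4 overlaps NUDT22 on the same strand, which makes its estimate uncertain. DNAJA3, the most abundant member by counts and a chaperone of the mitochondrial matrix, had 385.0 and 370.4 CPM in KO and 362.9 and 337.0 CPM in WT (0.11, SE 0.11; edgeR adjusted p = 0.706).

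Among the 6 members at the ribosome, on RNA or on histones, 3 lay above 0 and 3 below 0. DNAJC8, a component of the spliceosome, had 87.0 and 91.2 CPM in KO, against 267.9 and 103.8 CPM in WT. WT replicate 1 stood 2.58-fold above WT replicate 2, and both KO libraries were below both. The edgeR estimate was -1.06 on the log2 scale (SE 0.44; adjusted p = 0.465). WT replicate 1 decided this value: without WT replicate 1 it was -0.22, and without WT replicate 2 it was -1.57. Each of these fits keeps 1 WT library and cannot measure the spread in WT, so only the sizes are given.

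DNAJC21, which takes part in maturation of the large ribosomal subunit, had 4.96 and 18.8 CPM in KO and 32.2 and 23.6 CPM in WT (log2 fold change -1.22, SE 0.61; edgeR adjusted p = 0.510). KO replicate 1 was the low library, 3.78-fold below KO replicate 2. Without KO replicate 1 the value was -0.57, and without KO replicate 2 it was -2.49. DNAJC2, which binds ribosomes at the tunnel exit, had 110.9 and 127.7 CPM in KO and 119.1 and 82.5 CPM in WT (0.24, SE 0.21; edgeR adjusted p = 0.657). DNAJC9, a co-chaperone of histones H3 and H4, had 8.94 and 9.03 CPM in KO, against 7.39 and 7.36 CPM in WT (0.28, SE 0.24; edgeR adjusted p = 0.649). DNAJC24, an enzyme of diphthamide synthesis, was at 0.14 and the splicing-associated DNAJC17 at -0.13. In DNAJC9 and DNAJC24 replicates agreed closely and the genotypes did not overlap, but neither difference passed. DNAJC9 overlaps MRPS16 on the same strand, so its estimate is uncertain.

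The 3 members of vesicles and endosomes had log2 fold changes from -0.23 to 0.03. DNAJC6, the auxilin that uncoats clathrin vesicles, had 67.7 and 70.2 CPM in KO and 64.1 and 71.1 CPM in WT (log2 fold change 0.03, SE 0.13; edgeR adjusted p = 0.938), and -0.043 without WT replicate 1. DNAJC5, the cysteine string protein of secretory vesicles, had 84.1 and 98.7 CPM in KO, against 102.5 and 112.7 CPM in WT (-0.23, SE 0.14; edgeR adjusted p = 0.548). Its genotypes did not overlap, yet the difference did not pass. DNAJC13, an endosomal protein, had 1.72 and 1.76 CPM in KO and 1.31 and 2.29 CPM in WT (-0.05, SE 0.47; edgeR adjusted p = 0.973), and its sign turned to 0.012 in limma-voom and 0.42 without WT replicate 2. Of 4 tested members with no group, DNAJC12, which acts on aromatic amino acid hydroxylases, and DNAJC22 had the lowest levels, with log2 fold changes of 0.47 and -0.75 and overlapping genotypes. For DNAJC22 the WT libraries had 5.23 and 1.88 CPM, and without WT replicate 1 its value was 0.17. DNAJC7 and DNAJC27 were at -0.18 and -0.12.

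Some members differed between libraries of 1 genotype. In KO 2 of the 34 genes were over 2-fold apart between replicates, with at least 20 counts in 1 library (DNAJC3 and DNAJC21), against 6.96% of all tested genes. In WT there were 4 (DNAJB11, DNAJC8, DNAJC14 and DNAJC22), against 8.90%. The high library was WT replicate 1 for DNAJC8 and DNAJC22 and WT replicate 2 for DNAJB11 and DNAJC14. The 32 rows of DNAJ pseudogenes held at most 24 counts in a library, with 23 at 0 throughout, and 16 of the 34 tested genes overlap another annotated gene on the same strand. DNAJA3, DNAJB4 and DNAJC9 are among them, so the limit given for DNAJC4 applies to such genes as well.

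**Figure D4:**
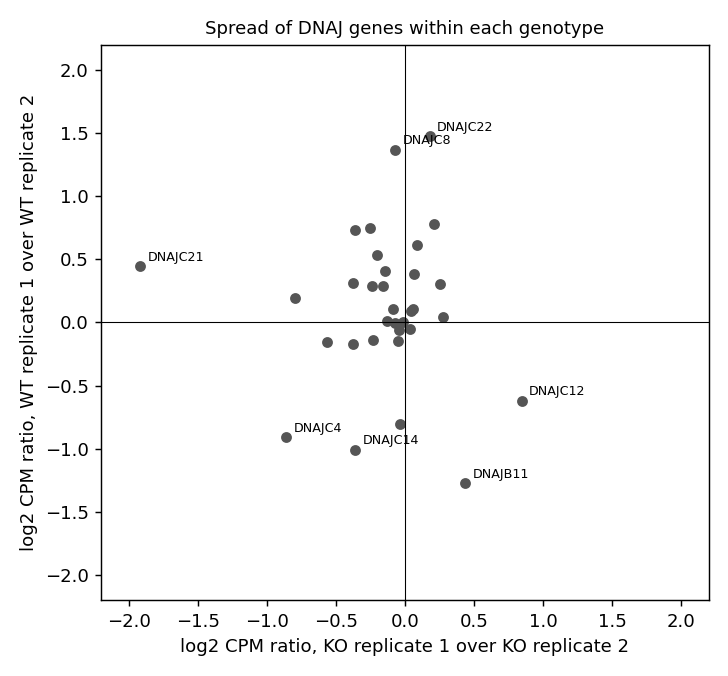
log2 CPM ratio of replicate 1 over replicate 2 in KO (x axis) and in WT (y axis); each point is 1 tested DNAJ gene, and DNAJC3, at 0 in 1 library, is left out. DNAJC21 is far from 0 in KO, and DNAJC8, DNAJC22, DNAJB11 and DNAJC14 are about 1 or more from 0 in WT. DNAJC4 lies away from 0 on both axes, with replicates 1.81-fold apart in KO and 1.88-fold apart in WT.

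The HSP70 chaperones that J-domain proteins act on gave no call by edgeR or DESeq2. Of 12 listed genes 8 had a row and 6 were tested, with 5 above 0, 1 below 0 and a median log2 fold change of 0.36, against -0.01 over all tested genes. HSPA8, the constitutive cytosolic HSP70, had 589.1 and 622.9 CPM in KO and 601.4 and 587.3 CPM in WT (0.03; edgeR adjusted p = 0.932). HSPA12A, a distant relative, had 6.77 and 5.10 CPM in KO, against 0 and 1.55 CPM in WT (2.93, SE 1.23; edgeR adjusted p = 0.467). HSPA2 had 22 and 38 counts in KO and 12 and 18 in WT (0.81, SE 0.46; edgeR adjusted p = 0.537). HSPA14, the partner of DNAJC2 at the ribosome, had 50 and 85 counts in KO and 47 and 40 in WT (0.46, SE 0.32; edgeR adjusted p = 0.589). The median of the list lies between HSPA14 and HSPA9 (0.26), which had at most 85 and 72 counts in a library. HSPA5, the ER HSP70, was not analysed here. HSPA1A, a heat-inducible HSP70, read 0 and 19.5 CPM in KO and 0 and 20.2 CPM in WT, so it was listed at 0 in replicate 1 of both genotypes.

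All 13 HSP70 nucleotide exchange factors were tested, with a median of 0.04, 8 above 0 and 5 below 0. BAG1 had 124.9 and 125.9 CPM in KO and 101.1 and 97.7 CPM in WT (log2 fold change 0.34, SE 0.11; edgeR adjusted p = 0.402). HSPH1, the cytosolic HSP110, had 1149 and 1259 CPM in KO, against 1750 and 1430 CPM in WT (-0.40, SE 0.16; edgeR adjusted p = 0.452), and mitochondrial GRPEL2 was at 0.41 (edgeR adjusted p = 0.476). The genotypes did not overlap in these 3, which had the smallest p of the list, and none passed. In the whole list they did not overlap in 4 of 13 (30.8%), against 47.0% of all tested genes.

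HSP90 and its co-chaperones, 16 tested, had a median of -0.17 with 5 above 0 and 11 below 0. TRAP1, the mitochondrial HSP90, had 88.0 and 76.0 CPM in KO and 50.6 and 56.3 CPM in WT (0.62 on the log2 scale, SE 0.14; adjusted p = 0.308 by edgeR and 0.123 by DESeq2). PPID, a prolyl isomerase, was at -0.53 (edgeR adjusted p = 0.395). AHSA1, which activates the ATPase of HSP90, had 72.2 and 91.0 CPM in KO, against 316.2 and 108.1 CPM in WT (-1.38, SE 0.51; edgeR adjusted p = 0.437). Like DNAJC8, AHSA1 was high in WT replicate 1.

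Chaperonins and prefoldin, 16 tested, had a median of -0.14, with CCT7, HSPD1 and PFDN4 at 0.35, -0.38 and -0.37 (edgeR adjusted p from 0.450 to 0.504). HSPB1 was the 1 small heat shock protein tested, with 67.1 and 50.8 CPM in KO and 123.7 and 55.9 CPM in WT (-0.61, SE 0.40; edgeR adjusted p = 0.573). Targets of heat shock factor 1, of which 15 were tested, 13 also in other partner lists, had a median of -0.26, with 3 above 0 and 12 below 0. Its summed level was 2978 and 3210 CPM in KO, against 4291 and 3336 CPM in WT, so WT replicate 1 was the high library. WT replicates were over 2-fold apart in 5 of the 15, against 8.90% of all tested genes. SERPINH1, a collagen chaperone, was at 0.46 (edgeR adjusted p = 0.410). The heat shock factors HSF1, HSF2 and HSF4 and the binding protein HSBP1 lay between -0.27 and -0.03.

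ER chaperones and unfolded protein response genes, 12 tested, had a median of 0.13 with 8 above 0 and 4 below 0. XBP1 was at 0.22 and PDIA6 at -0.47 (edgeR adjusted p = 0.510 and 0.541). MANF, a secreted ER stress protein, had 7.85 and 8.27 CPM in KO, against 56.8 and 11.9 CPM in WT (-2.09, SE 0.74; edgeR adjusted p = 0.422; DESeq2 adjusted p = 0.0612), and WT replicate 1 was again the high library. Of J-domain genes with other symbols 7 were tested, with a median of -0.02. SEC63, the J-domain subunit of the ER translocon, had 8.48 and 8.50 CPM in KO and 21.3 and 12.8 CPM in WT (-1.004, SE 0.31; edgeR adjusted p = 0.388). DNAJC5G, a relative of DNAJC5, had only 27 and 27 counts in KO and 14 and 2 in WT (1.66, SE 0.85; edgeR adjusted p = 0.517). The auxilin-related kinase GAK was at 0.35 (SE 0.19; edgeR adjusted p = 0.526). No gene of these partner lists passed edgeR or DESeq2. At an unadjusted p under 0.05, edgeR had 3 of the 74 distinct partner genes higher (4.05%, against 4.97% of all tested genes), BAG1, TRAP1 and SERPINH1. It had 4 lower (5.41%, against 6.21%), PPID, AHSA1, MANF and SEC63.

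**Figure D5:**
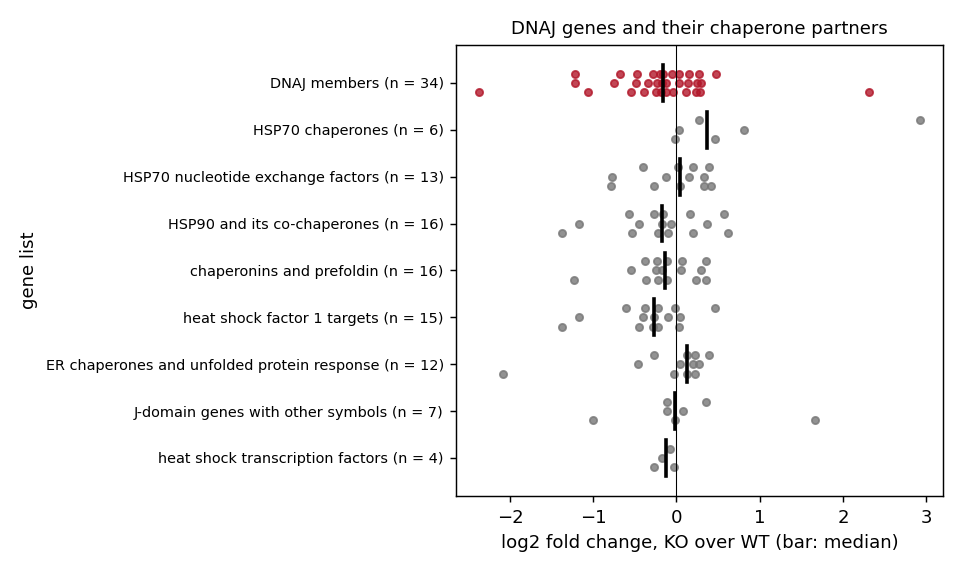
log2 fold change of KO over WT for the 34 tested DNAJ genes (red) and for the tested genes of 8 partner lists (grey), with a black bar at each median. The DNAJ median lies at -0.17 and the other medians between -0.26 (heat shock factor 1 targets) and 0.36 (HSP70 chaperones).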

How the data were processed

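RNA of 4 HCT116 libraries was measured by ribosomal RNA-depleted total RNA sequencing with paired reads of 150 bp, per the labels' protocols. The authors deposited a table of estimated counts per gene, whole numbers treated as rounded estimates, and a table of RPKM; per the submitters' processing notes, Salmon 1.10.1 and hg19 were used, and the annotation is not given in the sources used here. Counts were tested with edgeR 4.0.16 (quasi-likelihood F-test, TMM, filterByExpr, genotype only; limma 3.58.1, R 4.3.3) over 12269 genes with Benjamini-Hochberg adjustment at 0.05. The standard error is the size of the log2 fold change over the square root of F. DESeq2 1.42.0 (alpha 0.05; 12899 adjusted p) and limma-voom were alternatives, and 0 per-sample columns were left unused. Scripts were tested on simulated data. Strand, overlaps, spans and biotypes come from GENCODE 29 (GRCh38), matched by symbol.

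The family, role groups and partner lists were chosen with earlier results of these data known. Named were DNAJC14, genes past the threshold or at an unadjusted p under 0.05, the 8 highest and 4 lowest, the extremes of each role group, genes with replicates over 2-fold apart, the 3 smallest p of each partner list, and the 5 neighbours on each side and 5 nearest profiles of DNAJC14. Other members were named to account for all.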

Additional observations from a re-analysis of the deposited data

How the results depend on the processing

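With 2 libraries a genotype, depth and replicate number limit the precision. DESeq2 called 187 genes and 1 DNAJ gene (DNAJC14), and edgeR with no filter on low counts called 34 genes and 0 DNAJ genes; the reported fit, limma-voom and edgeR with RLE factors each called 1 gene and 0 DNAJ genes. The count over all genes thus changed with DESeq2 and with the filter, and the cause was not tested. DNAJC14 was chosen on this contrast, so its calls support nothing; without it DESeq2 called 0 DNAJ genes. Leaving out each library in turn, edgeR called 0 to 575 genes and 0 to 2 DNAJ genes (DNAJC14 and DNAJC8, both without WT replicate 2). The DNAJ median log2 fold change was -0.17 and ran from -0.23 to -0.075, or from -0.26 to -0.080 without DNAJC14. Members with separated genotypes numbered 18 and ran from 23 to 29, with 7 to 11 above and 13 to 18 below, as fewer libraries overlap less. TOP3B ran from -0.49 to -0.17. Across genes, the difference of replicate 1 from replicate 2 in WT correlated at 0.064 with that in KO. This value cannot decide if same-numbered libraries were handled together, which was not tested. With the replicate number as a block edgeR called 1 gene and 0 DNAJ genes, with a DNAJ median of -0.17. Leaving out each library in turn gave -0.51 to 0.088 for DNAJA2, -0.36 to 0.93 for DNAJB11, -0.013 to 0.085 for DNAJB6, -0.40 to 0.42 for DNAJC13, -1.29 to 0.17 for DNAJC22 and -0.043 to 0.12 for DNAJC6 (log2). Signs turned in 9 of 180 alternative values of named members: DNAJC13 (0.012 in limma-voom, 0.42 without WT replicate 2), DNAJA2 (0.088), DNAJC22 (0.17), DNAJC6 (-0.043) and DNAJB11 (-0.36) without WT replicate 1, DNAJB11 without KO replicate 1 (-0.084), and DNAJB6 without WT replicate 2 (-0.0068) and without KO replicate 2 (-0.013).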

Other observations

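The genes whose profile over the 4 libraries was nearest to DNAJC14 were CEP126, TMEM109, MSH6, HOXA3 and SPG11, by Euclidean distance of mean-centred log2(CPM + 0.5), from 0.126 to 0.546. TMEM109, a membrane protein, had 10.7 and 12.6 CPM in KO and 1.15 and 2.54 CPM in WT. MSH6, a mismatch repair protein, had 8.66 and 10.8 CPM in KO and 1.69 and 2.54 CPM in WT. SPG11, which is needed for lysosome reformation, had 38.7 and 29.4 CPM in KO and 5.00 and 10.6 CPM in WT. These genes were chosen for this likeness among all tested genes over 4 libraries, so their profiles are a description. CEP126, of centrosomes, and the homeobox gene HOXA3 were lower, with at most 51 and 56 counts in a library. CEP126 had 2.26 and 2.99 CPM in KO and 0 and 0.49 CPM in WT. HOXA3 had 1.99 and 3.28 CPM in KO and 0.15 and 0.41 CPM in WT. Their log2 fold changes of 3.4 and 3.2 were larger than the 2.32 of DNAJC14. At such levels the added 0.5 CPM shrinks the difference, so their nearness depends on it.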
